A study of Mus musculus with 4 samples.

Results

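The keratinocyte fate transcription factors described here are Trp63, Klf4, Klf5, Gata3, Grhl1, Grhl2, Grhl3, Prdm1, Tfap2a and Cebpa, 10 genes that set the identity and the maturation of skin epithelium. They were chosen by name, and every probe set that the platform annotation assigns to one of them alone was taken, which gave 21 of the 45037 probe sets tested, with 1 to 4 per gene. RNA levels were read on Affymetrix whole-genome arrays, 1 per sample, in epithelial cells that had been sorted from squamous cell carcinomas, skin tumours induced chemically in mice. Cells had been gated for the epithelial surface protein Epcam and against CD45, CD31 and CD140a, and were split by the green fluorescence of a Sox2 reporter into Sox2-GFP-positive cells (n = 2 arrays) and Sox2-GFP-negative cells (n = 2 arrays), the latter being the control. All 4 samples were malignant tumours, and the series text names 2 carcinomas from 2 mice as their source. The sources used here do not give the mouse strain, the age of the animals, the carcinogen or the construction of the reporter.

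In normal epidermis, cells are born in a basal layer, leave it, and build the cornified barrier as they move outwards. p63, encoded by Trp63, is the factor that stratified epithelia need to form and to keep their basal layer. Klf4, the grainyhead-like factors Grhl1 and Grhl3, Prdm1 (also called Blimp1) and Cebpa act later, in cells that leave the cycle and make the barrier or, for Prdm1 and Cebpa, also in the sebaceous lineage. Grhl2 maintains epithelial junctions, Klf5 is known from proliferating epithelial cells, Gata3 from the inner root sheath of the hair follicle and from the barrier, and Tfap2a encodes AP-2alpha, a factor of surface ectoderm.

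Values are log2 expression as deposited, and differences are positive minus negative on that scale, where 1 unit is a doubling. Array medians lay between 5.49 and 5.60 and 25th percentiles between 4.19 and 4.25, and 19 of the 21 probe sets lay above the 75th percentile on every array. Krt5 and Krt14, the basal keratins, read 12.99 to 13.32 in all 4 arrays, and Epcam 10.75 and 11.79 in positive cells beside 11.24 and 11.80 in negative cells. Both groups therefore carried the keratinocyte markers of the label. The Sox2 probe set read 3.14 to 3.50 in all 4 arrays, near the arrays' 5th percentiles (3.34 to 3.37), so the sort could not be checked on that transcript. With 2 arrays a group the number of arrays limits every value below, and an exact permutation test could not go below p = 0.333 (two-sided).

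Differences among the factors were judged with limma over all probe sets. None of the 21 probe sets passed a Benjamini-Hochberg adjusted p of 0.05 (lowest limma adjusted p = 0.287, for Cebpa), and none of the 45037 did (0% called, limma lowest adjusted p = 0.226). In these bulk samples fewer cells of a type and less transcript per cell cannot be told apart. The same counts of 0 were found in limma with the replicate number as a block (lowest adjusted p = 0.193 for the factors and 0.0974 over all). At an unadjusted limma p under 0.05 stood 5 of the 21, all lower in positive cells, beside 6.61% of all probe sets that were lower at that level and 14% in either direction. These were Cebpa, Grhl1, 2 of the 3 probe sets of Klf5 and 1 of the 3 of Tfap2a. Counted without a test, both positive arrays lay below both negative arrays in 8 of the 21, where the share over all probe sets was 18.4%, and above them in 3, where it was 29.7%. The median difference was -0.04 over the 21 probe sets and 0.07 over all probe sets.

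**Figure D1:**
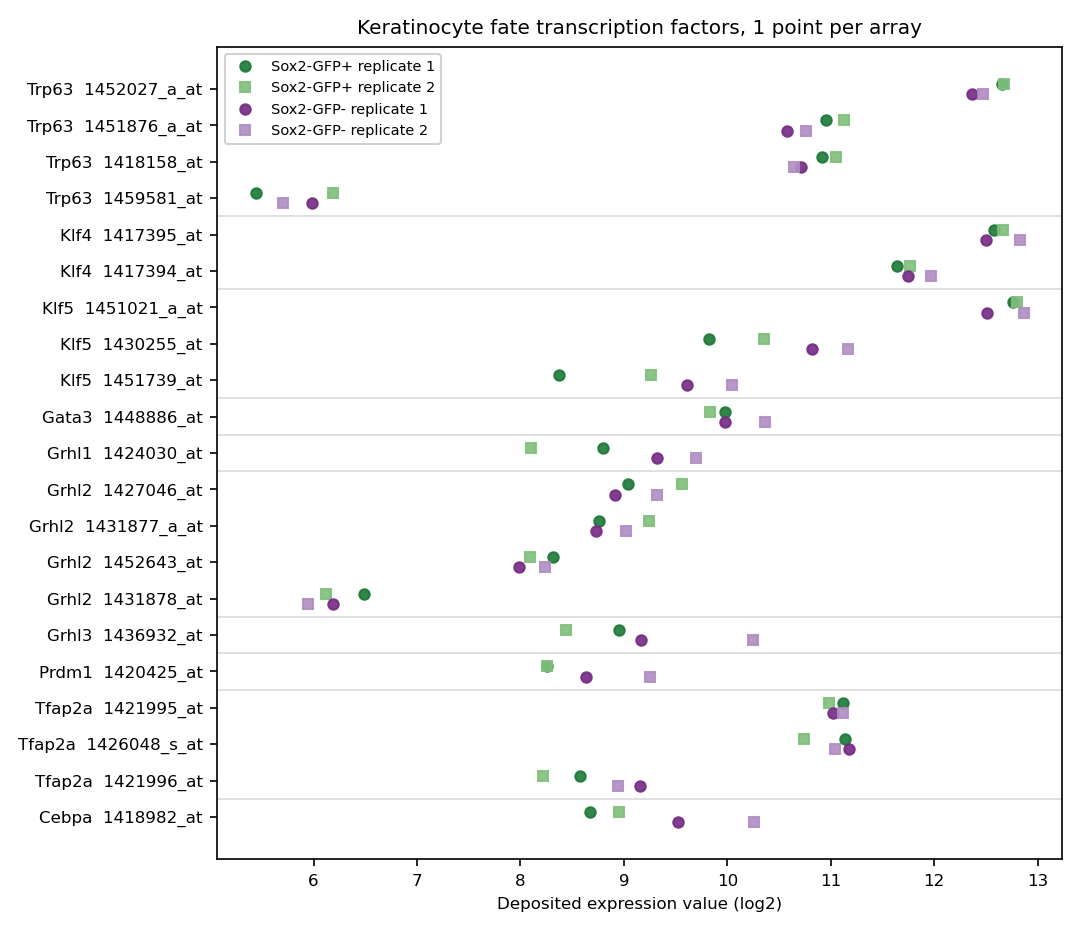
Deposited log2 value of each of the 21 probe sets (rows) in each of the 4 arrays; green points are Sox2-GFP-positive and purple points Sox2-GFP-negative arrays, circles replicate 1 and squares replicate 2. The first 3 Trp63 rows have both green points to the right of both purple points, whereas Grhl1, Grhl3, Prdm1, Cebpa and the 2 dimmer Klf5 rows have both to the left.

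The promoters of Grhl1, Grhl3 and Cebpa are shown because these 3 genes, read by 1 probe set each, had the most negative differences among the leading probe sets (the brightest of each gene). The windows run from 250 bases before to 50 bases after an annotated start, 5′ to 3′ along the gene (RefSeq, GRCm38.p6), and capitals mark the letters CCACCC or their complement GGGTGG, the core that KLF factors can bind. Grhl1 has 2 annotated starts, at chr12:24572037-24572336 and chr12:24580469-24580768 on the plus strand, Grhl3 lies at chr4:135573583-135573882 on the minus strand and Cebpa at chr7:35119043-35119342 on the plus strand.
Grhl1, first start: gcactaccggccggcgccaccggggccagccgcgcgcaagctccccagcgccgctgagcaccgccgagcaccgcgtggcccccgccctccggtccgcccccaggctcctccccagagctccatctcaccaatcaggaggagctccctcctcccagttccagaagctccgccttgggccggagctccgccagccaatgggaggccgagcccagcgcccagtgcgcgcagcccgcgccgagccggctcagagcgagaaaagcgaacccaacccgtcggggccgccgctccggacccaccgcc
Grhl1, second start: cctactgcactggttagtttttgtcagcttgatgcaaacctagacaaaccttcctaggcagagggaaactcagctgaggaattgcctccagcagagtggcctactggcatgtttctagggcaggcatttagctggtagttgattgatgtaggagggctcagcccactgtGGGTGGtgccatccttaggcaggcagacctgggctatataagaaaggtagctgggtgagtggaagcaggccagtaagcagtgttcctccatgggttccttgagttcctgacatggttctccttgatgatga
Grhl3: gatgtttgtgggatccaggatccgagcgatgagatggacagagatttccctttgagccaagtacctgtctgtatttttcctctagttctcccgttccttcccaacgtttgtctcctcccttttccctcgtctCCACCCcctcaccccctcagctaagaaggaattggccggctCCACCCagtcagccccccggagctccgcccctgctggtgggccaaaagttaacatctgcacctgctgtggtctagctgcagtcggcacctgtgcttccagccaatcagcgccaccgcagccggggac
Cebpa: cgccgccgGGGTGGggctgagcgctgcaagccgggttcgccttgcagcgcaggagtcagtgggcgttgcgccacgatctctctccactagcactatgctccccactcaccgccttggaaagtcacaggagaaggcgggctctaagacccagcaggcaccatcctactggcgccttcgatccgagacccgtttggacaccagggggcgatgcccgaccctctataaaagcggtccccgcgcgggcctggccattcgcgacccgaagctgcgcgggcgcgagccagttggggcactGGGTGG

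The reference table held windows for 7 of the 10 genes, 9 windows in all. The letters CCACCC, searched on both strands, were in 4 of the 9 (those of Grhl3, Cebpa and Gata3 and the second of Grhl1), and in 31.5% of all 32851 windows. The grainyhead core AACNGGTT was in 0 of the 9 and in 2.09% of all windows, the Prdm1 core GAAAGTG in 0 of the 9 and in 4.81%, and the GATA core AGATAA in 0 of the 9 and in 11.2%. The AP-2 core GCCNNNGGC was in 3 windows (those of Gata3 and Klf4 and the first of Grhl1, beside 16.6% of all windows). The C/EBP core TTGCNNNAA was in 3 (the second of Grhl1 and both of Tfap2a, beside 9.56%). The first Grhl1 window was richer in G and C (75.3%) than the second (51.3%), beside 53.8% on average over all windows. These are matches of letters only.

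Trp63, the basal factor, was the only one of the 10 genes with probe sets separated above. Its brightest probe set, 1452027_a_at, read 12.66 and 12.68 in positive replicates 1 and 2, and 12.37 and 12.47 in the matching negative arrays. Both positive arrays were above both negative arrays, by a gap of 0.18. On average the gene was higher by 0.24 ± 0.17 (SE, n = 2 a group; limma adjusted p = 0.568), or 1.18-fold.
Probe set 1451876_a_at read 10.96 and 11.12 against 10.57 and 10.77 (difference 0.37 ± 0.19 SE), and 1418158_at read 10.92 and 11.05 against 10.71 and 10.64 (0.31 ± 0.18 SE). In these 3 probe sets the sign was the same in both replicate numbers, with differences of 0.21 to 0.41. The fourth, 1459581_at, was dim (5.44 and 6.18 against 5.98 and 5.70), and its groups overlapped. No probe set of Trp63 had a difference whose 95% interval excluded 0, and the highest upper bound among the 4 was 0.87.

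The grainyhead-like genes are given one by one, since differences between them were not tested. Grhl1, a factor of desmosomal adhesion and the cornified layer, read 8.80 and 8.10 in positive cells, and 9.32 and 9.70 in negative cells. Every positive array lay below every negative array by at least 0.52. This gave -1.06 ± 0.31 (SE, n = 2 a group; limma adjusted p = 0.294), 2.08-fold lower in positive cells, with -0.52 for replicate 1 and -1.60 for replicate 2.
Grhl3, which mice need for the skin barrier and for wound closure, read 8.95 and 8.44 against 9.17 and 10.25. The groups did not overlap, but negative replicate 1 was close to positive replicate 1 and negative replicate 2 stood far above the other 3 arrays. The difference of -1.01 ± 0.43 (limma adjusted p = 0.393) came from -0.22 in replicate 1 and -1.81 in replicate 2, and it was -0.47 without negative replicate 2.
Grhl2, which maintains cell junctions in epithelia, had 4 probe sets, all with overlapping groups. The brightest, 1427046_at, read 9.04 and 9.56 against 8.91 and 9.32, and the 4 differences ran from 0.09 to 0.23. The 95% intervals of these 4 reached from -0.55 to 0.92, so smaller falls, and rises, were not excluded. None of the 4 reached down to the differences read for Grhl1 (-1.06) and Grhl3 (-1.01). The intervals of Grhl1 (-1.89 to -0.23) and Grhl3 (-2.15 to 0.13) were wide and overlapped with those of Grhl2.

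Cebpa, a leucine zipper factor that restrains division in suprabasal keratinocytes and acts in sebocytes, had the most negative difference of the 21 probe sets. Positive arrays read 8.68 and 8.95, negative arrays 9.53 and 10.26. The nearest arrays of the groups were 0.57 apart, the widest gap among the 21. The difference was -1.08 ± 0.31 (limma adjusted p = 0.287), 2.11-fold lower, and it was -0.85 and -1.31 for replicates 1 and 2.
Prdm1, a repressor of the granular layer and sebaceous gland, read 8.26 and 8.26 against 8.63 and 9.25. The positive arrays were nearly equal, below both negative arrays, and most of the spread lay in the negative arrays. The difference was -0.68 ± 0.27 (limma adjusted p = 0.366), 1.60-fold lower, with -0.37 and -0.99 per replicate number, and -0.37 without negative replicate 2.
Gata3 read 9.98 and 9.84 against 9.98 and 10.36. Positive and negative replicate 1 were equal to within 0.0013, so the separation below counted above is only nominal for this gene. Its difference was -0.26 ± 0.22 (limma adjusted p = 0.623), and -0.07 without negative replicate 2.

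Klf4, the barrier factor best known outside skin from reprogramming, was among the brightest genes of all 4 arrays. Its probe set 1417395_at lay at or above the 99.3rd percentile throughout and read 12.58 and 12.66 in positive cells, beside 12.51 and 12.83 in negative cells. The groups overlapped, and the difference was -0.04 ± 0.20 (limma adjusted p = 0.943) with a 95% interval of -0.58 to 0.49. The second probe set, 1417394_at, read 11.64 and 11.77 against 11.75 and 11.97 and also overlapped (-0.16 ± 0.19).

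For Klf5 and Tfap2a some probe sets of the gene were separated below and others overlapped between groups. Differences between probe sets of a gene were not tested, and within each of these 2 genes their 95% intervals overlapped. Klf5 is measured by 1451021_a_at, whose suffix marks probes shared by several transcripts of a gene, and by 2 dimmer probe sets. The bright one gave 12.76 and 12.80 for the positive and 12.51 and 12.87 for the negative arrays (difference 0.09 ± 0.21), with overlapping groups. Probe set 1430255_at read 9.83 and 10.36 against 10.82 and 11.17 (-0.90 ± 0.27, limma adjusted p = 0.296). Probe set 1451739_at read 8.38 and 9.26 against 9.61 and 10.04 (-1.01 ± 0.37, limma adjusted p = 0.345), and its difference was -0.57 without positive replicate 1. In both of these every positive array lay below every negative array, and the sign was the same in both replicate numbers.
The range of differences within Klf5 was 1.10. Among 1292 genes with 3 probe sets at or above the median level, 93 had a range as large (7.2%), and for Klf5 that includes a bright and a dimmer reading. Tfap2a showed the same layout on a smaller scale. Its probe sets 1421995_at (11.12 and 10.98 against 11.02 and 11.12) and 1426048_s_at (11.13 and 10.74 against 11.18 and 11.04) overlapped between groups, while the dimmer 1421996_at read 8.57 and 8.22 against 9.16 and 8.94 (-0.65 ± 0.22, limma adjusted p = 0.324). Its range of 0.64 was reached by 30.6% of the same 1292 genes. Where on the transcripts these probes lie was not analysed here.
The control probe sets for Gapdh showed a 3′ minus 5′ difference of 0.35 and 0.48 in positive arrays, beside 0.77 and 0.64 in negative arrays, a measure of RNA integrity, whereas those for beta-actin gave -0.21 and -0.10 against -0.21 and -0.19. The part of RNA integrity in the unlike readings of these probe sets was not tested.

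**Figure D2:**
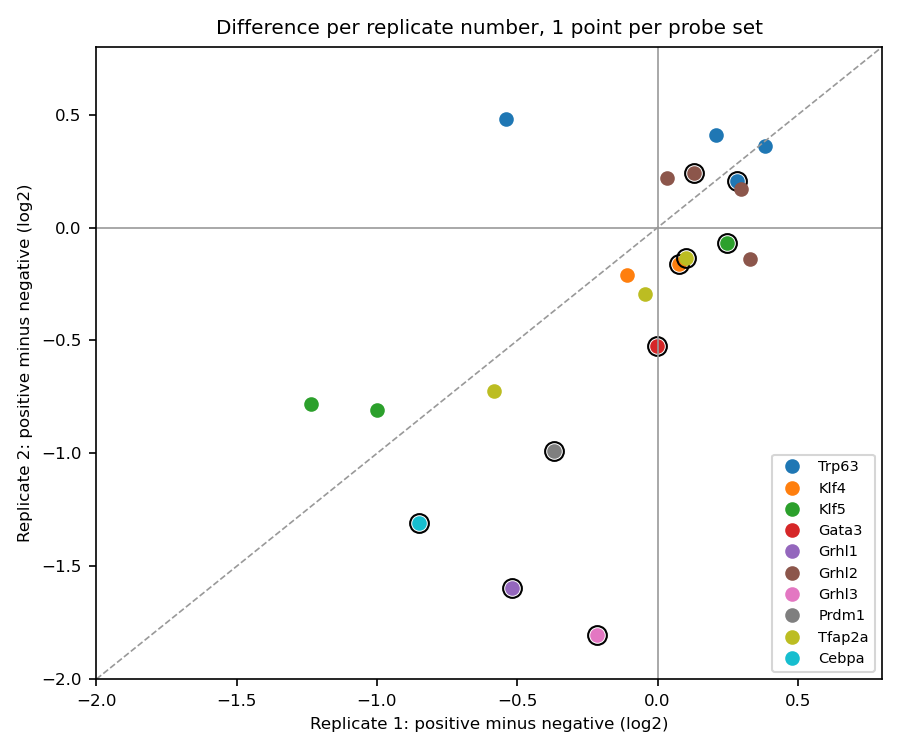
Positive minus negative difference (log2) for replicate 1 (x axis) and for replicate 2 (y axis) for each of the 21 probe sets, coloured by gene; rings mark the brightest probe set of a gene, and the dashed line is equality. Grhl3 (-0.22 and -1.81) and Grhl1 (-0.52 and -1.60) lie well below that line, whereas the 2 dimmer Klf5 probe sets lie above it and 3 of the 4 Trp63 probe sets are positive on both axes.

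Across the replicate numbers, 10 of the 21 probe sets were lower in positive cells in both, beside 26.2% of all probe sets, and 6 were higher in both, beside 36.5%; the other 5 changed sign. Negative replicate 2 held the highest value of the 4 arrays in 10 of the 21 probe sets, beside 20.8% of all probe sets, and it exceeded negative replicate 1 in 16 of the 21, beside 54.5%. That array was the highest for Grhl1, Grhl3, Prdm1, Cebpa, Gata3, both probe sets of Klf4 and all 3 of Klf5. The negative arrays thus differed from each other in these factors, for Grhl3 with an SD of 0.77 (n = 2) beside 0.36 in the positive arrays (n = 2). Which group had the larger spread varied between probe sets. For Cebpa the SD was 0.52 in negative and 0.20 in positive arrays. For Grhl1 it was 0.27 in negative and 0.49 in positive arrays, and for Klf5 1451739_at 0.31 and 0.62.

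Other members of the same factor families were also read, 1 probe set per gene. Of the 35 paralogs listed, 31 were measured, 0 passed the limma test as among all 18193 genes (0% called), 14 were separated below and 5 above, beside 14% and 35.5% of all genes. Their median difference was -0.19, beside 0.14 over all genes. Tfap2b, the paralog of Tfap2a, read 4.66 and 4.14 against 6.65 and 6.79 (-2.32 ± 0.25 SE, limma adjusted p = 0.226), a wider separation than that of any of the 10 factors. Both positive readings lay in the dim part of their arrays, so the ratio only bounds the difference.
Cebpd, an inflammation- and stress-responsive relative of Cebpa, read 7.52 and 8.18 against 9.74 and 9.44 (-1.75 ± 0.29), and Gata6, a factor of the duct of the sebaceous gland, 4.88 and 4.70 against 5.88 and 6.07, where the dim positive readings again only bound the difference. Prdm4 was among the 5 above, with 7.88 and 8.33 against 7.11 and 7.36 (0.87 ± 0.24).

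Of 33 further regulators of keratinocyte maturation and chromatin, 30 were measured, with 9 separated above (30%, beside 35.5% of all genes), 4 below (13.3%, beside 14%) and a median of 0.09, all close to the values over all genes. Vdr, the vitamin D receptor, which keratinocytes use in differentiation and the hair cycle, averaged 8.64 ± 0.44 in positive and 9.97 ± 0.04 in negative arrays (SD, n = 2 each; difference -1.34 ± 0.27 SE). Ppard, a lipid-sensing nuclear receptor, read 11.35 and 11.58 against 10.75 and 10.55 (0.82 ± 0.20). The homeobox factor Dlx5 read 9.52 and 8.95 against 8.32 and 7.60 (1.27 ± 0.35), and Bnc1, a zinc finger protein of basal keratinocytes, 9.48 and 9.95 against 9.01 and 9.07 (0.68 ± 0.23). None passed the limma test over all probe sets (lowest adjusted p = 0.243).

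The genes these factors are known to regulate were placed beside them. Of 22 measured basal genes downstream of p63, 14 were separated above (63.6%, beside 35.5% of all genes) and 5 below (22.7%, beside 14%), with a median difference of 0.52 (0.40 for replicate 1 and 0.67 for replicate 2). Itga3 and Itgb4, integrins that hold basal cells to the basement membrane, differed by 1.41 ± 0.24 and 1.22 ± 0.23 (SE). Cdh3, the P-cadherin of basal cells, read 8.98 and 8.94 against 8.12 and 7.69, and Lamb3, a chain of the anchoring laminin, 10.72 and 11.74 against 9.48 and 9.89. These 4, named for the lowest limma p of the list, had differences of 1.05 to 1.54, beside 0.24 to 0.37 for the 3 brighter Trp63 probe sets. They do not stand for the whole list. The basal keratin Krt15 differed by -0.85 ± 0.38 (SE) and was among the 5 below, and Krt5 and Krt14 differed by -0.04 and 0.04.

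Of 34 barrier and cornified envelope genes, 21 were separated below (61.8%, beside 14% of all genes) and 3 above (8.82%, beside 35.5%), with a median of -0.81 made of -0.47 for replicate 1 and -1.49 for replicate 2. The larger difference in replicate 2 was also seen in Grhl1 and Grhl3, but was not particular to them. Cebpa (-0.85 and -1.31), Prdm1 (-0.37 and -0.99), Gata3 (-0.0013 and -0.52) and Tfap2a 1421996_at (-0.58 and -0.73) had it too. In the 2 dimmer Klf5 probe sets replicate 1 had the larger difference. Scel, a cornified envelope precursor, read 3.81 and 3.63 against 7.57 and 8.19, and Klk7, a protease that sheds cornified cells, 7.65 and 6.85 against 11.30 and 11.70. Calml3 and Flg, a calmodulin-like protein and profilaggrin, differed by -1.89 ± 0.21 and -2.48 ± 0.29 (SE), and the positive readings of Scel and Flg lay in the dim part of the arrays, so their differences are only bounds.
Of 21 genes bound or controlled by grainyhead-like factors in epithelia, 8 were separated below (38.1%, beside 14% of all genes) and 4 above (19%, beside 35.5%), with a median of -0.26. Cdh1, which encodes E-cadherin, read 9.64 and 10.36 against 10.74 and 11.18 (-0.96 ± 0.32), and Spint1, a membrane protease inhibitor, 8.68 and 8.79 against 9.17 and 9.42 (-0.56 ± 0.19). Erbb3, a growth factor receptor, differed by -0.53 ± 0.20, while Ovol2, a zinc finger repressor that protects epithelial identity, read 5.12 and 5.25 against 4.23 and 4.80, dim in all 4 arrays, which only bounds its difference.
Of 13 measured sebaceous genes, from 17 listed, 8 were separated below (61.5%, beside 14% of all genes) and 1 above (7.69%, beside 35.5%), with a median of -1.19. Krt79, a keratin of the sebaceous duct, read 7.69 and 6.11 against 11.75 and 11.78. Scd1, which desaturates fatty acids, differed by -1.31 ± 0.21 (SE), and Cidea, a lipid droplet protein, read 4.83 and 4.19 against 6.62 and 6.14, where the dim positive readings only bound the difference. A further list joins markers of the hair shaft with those of the inner root sheath, and only the latter is where Gata3 is known from. Of its 14 measured markers, 4 were separated above (28.6%, beside 35.5% of all genes) and 1 below (7.14%, beside 14%), with a median of 0.04. Padi3, a peptidylarginine deiminase of the inner root sheath, differed by 2.07 ± 0.23 (SE). The inner root sheath keratin Krt73 read 4.27 and 4.15 against 4.69 and 5.25, dim in all 4 arrays, which only bounds its difference.
No gene of these lists passed the limma test (lowest adjusted p = 0.226), and the lists were chosen with earlier results of these data known. The lists also share genes, among them Bnc1, Tfap2c, Gata6, Tgm1, Ovol1 and Ovol2, so their counts are not independent of each other.

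**Figure D3:**
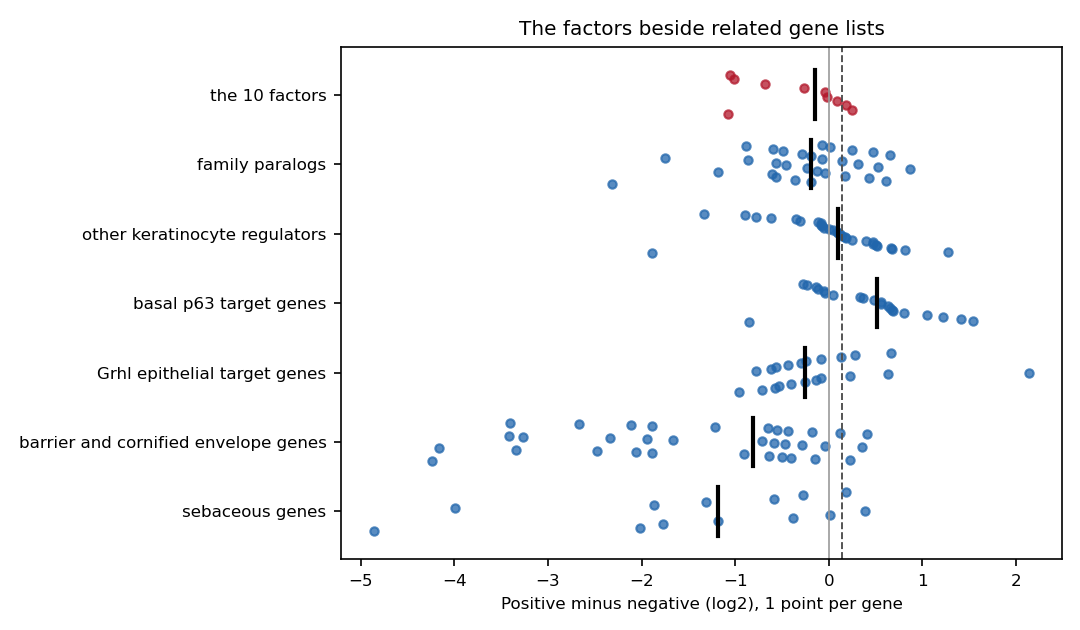
Positive minus negative difference (log2, x axis) of the leading probe set of each gene, 1 point per gene with vertical scatter for legibility, for the 10 factors (red) and 6 lists of related genes (blue); black bars are list medians, the solid line is 0 and the dashed line the median of all 18193 genes (0.14). The 10 factors (median -0.15) span -1.08 to 0.24, a narrower span than the barrier list (-4.24 to 0.41).

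Relative to the mean of the 4 arrays, the barrier list lay at -0.29 and -1.11 in positive replicates 1 and 2 and at 0.57 and 0.83 in negative replicates 1 and 2. Grhl1 followed the same order of arrays (-0.18, -0.88, 0.34 and 0.72), as did Grhl3 (-0.25, -0.76, -0.04 and 1.05). Gata3 did so too (-0.061, -0.20, -0.059 and 0.32), so the order was not particular to the grainyhead-like genes. Prdm1 had nearly equal positive arrays (-0.34 in each), below 0.03 and 0.65 in the negative arrays. In Cebpa the order of the 2 positive arrays was the opposite (-0.68 and -0.40). The sebaceous list lay at -0.37 and -0.99 against 0.72 and 0.63, so that negative replicate 1 was its highest array.
Markers of cells that the gate should have removed were read as well, and for the endothelial list the groups overlapped. The 13 fibroblast markers lay at -0.12 and -2.14 against 1.93 and 0.34, with 11 separated below, beside 14% of all genes. The 11 endothelial markers lay at -0.16 and -0.86 against 1.28 and -0.27, with 2 separated below (18.2%, near the 14% of all genes). The 17 immune markers lay at -0.15 and -0.71 against 0.84 and 0.03, with 6 separated below (35.3%, beside 14%). In negative replicate 1, Pdgfra read 7.83 and Pecam1 8.44, both above that array's median, whereas the leading probe set of Ptprc read 4.97, below it, as it did in the other 3 arrays (4.18 to 4.98). For a second Ptprc probe set negative replicate 1 gave 6.40, above the array median, and the remaining arrays 3.68 to 4.30. The 8 melanocyte markers lay at -0.27 and -0.83 against 0.76 and 0.33, with 5 separated below (62.5%, beside 14% of all genes). Among them Tyrp1 read 3.81 and 3.33 against 5.76 and 6.21.
The 9 keratinocyte markers lay at -0.20 and 0.02 against 0.0020 and 0.18 (median difference -0.05). Of these, 5 were separated below (55.6%, beside 14% of all genes) and 2 above (22.2%, beside 35.5%). Those below include Krt5 (-0.04) and Perp (-0.05), so a separation can go with a very small difference. The 6 Merkel cell markers were dim, with array medians of 4.12 to 4.63.
All 4 of the fibroblast, endothelial, immune and melanocyte lists had their highest level in negative replicate 1. Grhl1, Grhl3, Prdm1, Cebpa and Gata3 were highest in negative replicate 2. Cebpa, Gata3, Prdm1 and Klf4 are also made by leukocytes or endothelium, and the part of such cells in their values was not tested.

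**Figure D4:**
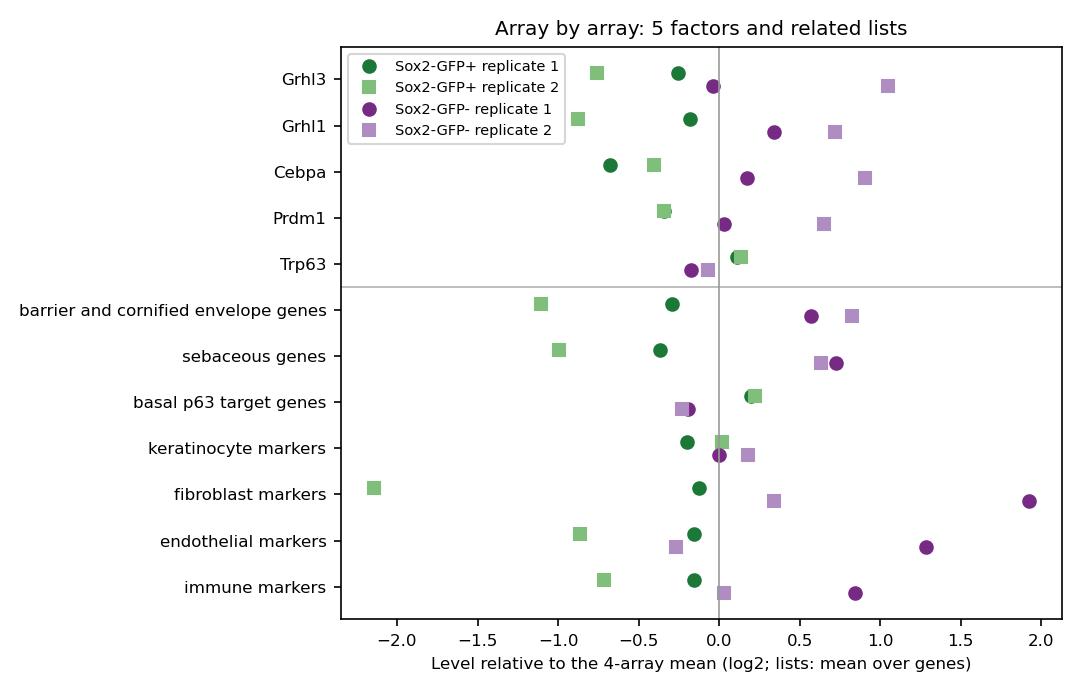
Level of 5 factors (leading probe set, above the line) and of 7 gene lists (mean over genes, below it) in each array, relative to the 4-array mean on the log2 scale; colours and symbols mark the group and the replicate. Grhl3, Grhl1, Cebpa and Prdm1 are highest in negative replicate 2 (0.65 to 1.05), while the fibroblast, endothelial and immune lists are highest in negative replicate 1 (0.84 to 1.93).

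All directions hold on the deposited scale, whose normalization the sources used here do not state. Scaled to the 24 bacterial spike-in probe sets, every difference was higher by 0.79, and the median over all probe sets moved from 0.07 to 0.86. On that scale Cebpa (-0.29), Grhl1 (-0.27), Grhl3 (-0.22) and the 2 dimmer Klf5 probe sets (-0.22 and -0.11) were still below 0, and Prdm1 was above it (0.11). The order of the 10 factors is the same on both scales, since the same amount is added to each.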

How the data were processed

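Per the labels' protocols, bacterial control RNA was added to the RNA of each of the 4 sorted samples, which was then amplified and put on 1 array. The authors deposited log2 values for 45101 probe sets (range 2.73 to 14.36; scale read from the values), made with R 2.14.0 per the submitters' processing notes; the sources used here do not state the background correction or normalization, and no detection calls or depth come with the values. Without the 64 control probe sets, 45037 were tested with limma 3.58.1 (R 4.3.3; lmFit, eBayes; group only; 2 residual degrees of freedom, prior 2.56; Benjamini-Hochberg, threshold 0.05), and the script was tested on simulated data. The platform annotation gave 34945 of them 1 gene symbol, 932 several and 9160 none; a gene's leading probe set has the highest mean (18193 genes). All member probe sets are reported, and from each of 6 related lists the 4 genes with the lowest p and any past the threshold; 245 list entries, markers included, held 229 measured. Members and lists were chosen with earlier results of these data known.

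Groups and replicate numbers come from the sample titles. The series text names 2 tumours of 2 mice, which was read as pairing equal numbers, a reading the labels do not state; differences between replicates 1 and 2 correlated between the groups with r = 0.18 across probe sets (0.24 in the brighter ones), which are not independent replicates. The blocked fit has 1 residual degree of freedom. Whether the samples of a group came from separate preparations beyond the 2 tumours is not stated, so p-values measure only the spread between these arrays. Promoters are from RefSeq (GRCm38.p6).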

Additional observations from a re-analysis of the deposited data

How the results depend on the processing

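No probe set of the 10 factors was called under any alternative except spike-in scaling, which called 10 of the 21 and 27026 of all 45037 probe sets. On that scale 14 of the 21 were separated above and 0 below. Spike-in scaling raises every difference by 0.79, and the share of all probe sets separated there is not given here. These counts are therefore no result about the factors. The replicate block called 0 of all probe sets, and 64 at an adjusted p under 0.1; with 1 probe set per gene it called 171 genes and 0 of the factors (these last 2 settings, and the block with quantile normalization, were chosen after seeing the data). Leaving out 1 array gave 4 to 8 of the factors' probe sets separated above and 9 to 11 below. The higher counts partly follow from having 1 array fewer to separate. The shares of all probe sets under these settings are not given here, so the counts are no result about the factors. A set of 178 differences was recomputed under settings that can move most of them. It holds the quantile-normalized differences again with the replicate block, which leaves them unchanged. It also holds the means of genes with 1 probe set, which equal the main values. Among the 178, 27 had the opposite sign, 11 of these under spike-in or equal-median scaling, which shift all probe sets alike. Under spike-in scaling these were Klf4 (0.75 and 0.63), Tfap2a (0.77, 0.62 and 0.14), Trp63 1459581_at (0.76), Gata3 (0.53) and Prdm1 (0.11). With equal medians they were Trp63 1459581_at (0.052), Klf4 1417395_at (0.038) and Tfap2a 1421995_at (0.064), and after quantile normalization, with or without the replicate block, Trp63 1459581_at (0.030). The mean of its probe sets put Klf5 at -0.61, because the 2 dimmer ones enter it. Leaving out 1 array moved Trp63 1459581_at from -0.40 to 0.34, Klf4 1417395_at from -0.20 to 0.12, Klf5 1451021_a_at from -0.086 to 0.27, Grhl2 from -0.073 to 0.44 (1427046_at), -0.12 to 0.37 (1431877_a_at) and -0.027 to 0.22 (1452643_at), and Tfap2a from -0.087 to 0.052 (1421995_at) and -0.37 to 0.025 (1426048_s_at). The cause was not tested. Grhl3 ran from -1.55 to -0.47, Cebpa from -1.45 to -0.71 and Grhl1 from -1.41 to -0.71, while Klf5 1451739_at ran from -1.45 to -0.57, Klf5 1430255_at from -1.17 to -0.64, Prdm1 from -0.99 to -0.37, Tfap2a 1421996_at from -0.83 to -0.48 and Gata3 from -0.45 to -0.072, all below 0.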
